A study of Mus musculus with 120 samples.

Results

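The livers of CC019, 1 of 10 Collaborative Cross mouse strains in the series, were compared between a fattening diet and its control. The Collaborative Cross is a panel of inbred lines that each carry a different mix of the genomes of several founder strains. The 12 libraries labelled CC019 were taken by their strain label out of 120 libraries in all. They fell into 4 groups of 3 libraries: males and females on the diet high in fat and sucrose (HF/HS), and males and females on the control diet. All 12 came from livers after 12 weeks on the diet. The HF/HS chow (TD.88137) supplied 42% of calories as milkfat, with 0.2% cholesterol and over 30% sucrose, and the control chow was matched in ingredients but low in fat and reduced in sucrose. The animals were of a single inbred genotype, with no transgene or deletion named in the labels. The age of the mice was not given in the sources used here. Whether each library stands for its own mouse is not stated in the labels, and the p-values below therefore cover the spread among libraries, which may be technical. The values come from whole liver, where fewer cells of a type and less RNA per cell cannot be told apart.

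Liver cells make cholesterol from acetyl-CoA through mevalonate and squalene, and they also take it up from the blood as low-density lipoprotein (LDL). Both routes are governed by SREBP2, a transcription factor encoded by Srebf2 that the proteins Scap and Insig hold in the endoplasmic reticulum while sterols are plentiful. Once released and cleaved, it switches on the genes of synthesis and uptake, together with the factor NF-Y, which binds CCAAT boxes. Its relative SREBP1 drives fatty acid synthesis. Mouse liver also differs widely between the sexes, largely through the pattern of growth hormone release.

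The promoters of 5 of the most changed cholesterol enzymes are shown because these genes moved together. They are RefSeq sequences of GRCm38.p6, from 250 bases before to 50 bases after the gene's start, on the strand of the gene. Capitals mark CCAAT boxes on either strand (CCAAT or ATTGG) and the sterol element core CACCCCA or its reverse complement. The regions are chr13:8885356-8885655 (plus strand) for Idi1, chr8:64733529-64733828 (minus) for Msmo1, chr5:4104648-4104947 (minus) for Cyp51, chrX:72918271-72918570 (plus) for Nsdhl and chr13:119690101-119690400 (plus) for Hmgcs1.
Idi1: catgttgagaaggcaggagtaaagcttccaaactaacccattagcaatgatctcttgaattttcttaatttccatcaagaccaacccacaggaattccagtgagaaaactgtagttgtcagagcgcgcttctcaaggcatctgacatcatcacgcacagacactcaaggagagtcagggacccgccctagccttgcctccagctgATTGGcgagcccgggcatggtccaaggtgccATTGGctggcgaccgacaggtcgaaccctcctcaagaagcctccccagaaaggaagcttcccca
Msmo1: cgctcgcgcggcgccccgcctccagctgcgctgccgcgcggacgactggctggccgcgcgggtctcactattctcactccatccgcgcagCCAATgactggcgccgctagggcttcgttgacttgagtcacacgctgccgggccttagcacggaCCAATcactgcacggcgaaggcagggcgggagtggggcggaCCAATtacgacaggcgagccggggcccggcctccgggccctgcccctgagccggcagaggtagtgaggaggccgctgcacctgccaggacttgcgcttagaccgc
Cyp51: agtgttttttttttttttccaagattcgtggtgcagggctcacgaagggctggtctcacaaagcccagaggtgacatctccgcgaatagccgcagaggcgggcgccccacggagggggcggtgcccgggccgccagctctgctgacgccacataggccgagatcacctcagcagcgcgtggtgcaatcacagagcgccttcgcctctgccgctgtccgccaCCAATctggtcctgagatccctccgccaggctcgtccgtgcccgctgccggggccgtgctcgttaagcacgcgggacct
Nsdhl: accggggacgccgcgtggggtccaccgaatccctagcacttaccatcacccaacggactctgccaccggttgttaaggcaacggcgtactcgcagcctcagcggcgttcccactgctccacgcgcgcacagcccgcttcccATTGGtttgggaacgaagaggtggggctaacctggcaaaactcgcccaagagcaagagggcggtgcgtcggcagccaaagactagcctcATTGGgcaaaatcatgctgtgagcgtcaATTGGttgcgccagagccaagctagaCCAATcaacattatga
Hmgcs1: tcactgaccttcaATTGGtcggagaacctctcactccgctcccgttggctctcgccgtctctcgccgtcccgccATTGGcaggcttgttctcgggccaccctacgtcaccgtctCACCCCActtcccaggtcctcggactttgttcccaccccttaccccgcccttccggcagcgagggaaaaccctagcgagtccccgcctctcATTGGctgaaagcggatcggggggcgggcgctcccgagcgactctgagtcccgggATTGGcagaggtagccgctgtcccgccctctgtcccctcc

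Of the 28 genes in the 3 cholesterol lists described here, 20 matched the RefSeq table by symbol, with 26 promoters. A CCAAT box stood in 18 of these 26 promoters (69.2%), against 37.4% of all 32851 promoters in the table. With 1 promoter per symbol, it stood in 17 of 20 (85%), against 37.9%. The palindromic E-box CACGTG was found in 6 of 26 (23.1%, against 7.15% of all) and CACCCCA in 3 of 26 (11.5%, against 7.62%), and no 2 motifs overlapped in the promoters searched here. Overlapping windows of Scap share a single E-box site, which was counted in each. With 1 promoter per symbol, the E-box stood in 4 of 20 (20%, against 7.24%) and CACCCCA in 3 of 20 (15%, against 7.5%). Among promoters of tested symbols the shares were 39.2% for the CCAAT box, 10.4% for the E-box and 7.55% for CACCCCA. Nsdhl and Hmgcs1 each held 4 CCAAT boxes, Msmo1 held 3, Idi1 held 2 and Cyp51 held 1. A match describes letters in this window and is not evidence that a factor bound there.

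The deposited values are FPKM-like, scaled by the authors so that the 75th percentile of every library is close to 10, and the read depth is unknown. The 12 libraries summed to 964482 to 1141620 units, with 33.4% to 35.1% of the table's entries at 0. Pearson's r on log2(value + 1) between libraries of 1 group, taken across genes, was 0.950 to 0.970. Xist had values of 55.4 to 122 in the 6 female libraries and of 0.0675 to 0.523 in the 6 male libraries, and 4 Y-linked genes had no overlap between the sexes, so no library went against its sex label. Of the 14 hepatocyte markers, 12 were tested. Alb, the albumin gene, was listed at 0 in all 12 libraries, and since every hepatocyte uses it, a 0 in this table can be a failed estimate.

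The first comparison asked which genes differed between HF/HS and control livers in CC019, with the sex as a covariate. Cholesterol synthesis fell as a group, and Adam11 rose more than any other called gene. Of 11833 rows with a mean of at least 1, 75 were called at an adjusted p under 0.05 (limma, Benjamini-Hochberg), which is 0.634% of those tested. There were 25 called higher (0.211%) and 50 called lower (0.423%). The 6 HF/HS values and the 6 control values did not overlap in 52 of the 75, while over all rows this held for 110 (0.93%). Of the 75, 23 differed by more than 2-fold, 1 upwards and 22 downwards. The median difference over all rows was 0.01 (log2), with 6298 positive and 5535 negative differences. With 1 library left out the count ran between 37 and 104, and it was under 50 without female HF/HS 1 (37) or 2 (42), male HF/HS 2 (44), or female control 1 (45) or 3 (42).

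Of the 9 genes that lead to squalene, 6 fell and none rose, where 0.423% of all rows were called lower. Their median difference was −2.09 (log2), and all 9 had negative differences. Idi1, the isomerase that makes the reactive isoprene unit, had 12.2, 17.7 and 12.8 in male and 16.7, 16.1 and 19.1 in female HF/HS livers, against 186, 102 and 122 in male and 121, 122 and 299 in female control livers. Every HF/HS library lay below every control library by a wide margin. Idi1 (chr13:8885606-8892396) fell by 3.16 ± 0.229 on the log2 scale (SE; adjusted p = 0.00017, limma).

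Fdps, which joins isoprene units into farnesyl diphosphate, had 26.6, 37.6 and 37.2 in male and 23.7, 29.0 and 50.5 in female HF/HS livers, against 575, 324 and 213 in male and 242, 165 and 523 in female control livers. The groups did not overlap, and the control livers spread over a wider range than the HF/HS livers. Fdps (chr3:89093588-89101967) fell by 3.18 ± 0.325 (log2, SE; adjusted p = 0.00134, limma). Hmgcs1, the enzyme that makes HMG-CoA, averaged 36.0 ± 6.06 in HF/HS and 244 ± 147 in control livers (SD, n = 6 each) and fell by 2.56 ± 0.301. Pmvk, phosphomevalonate kinase, averaged 20.9 ± 2.95 in HF/HS and 96.1 ± 33.7 in control livers and fell by 2.09 ± 0.20. Mvk, mevalonate kinase, and Fdft1, squalene synthase, fell by 1.37 ± 0.177 and 1.76 ± 0.235.

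Mvd, the decarboxylase after Pmvk, had 1.28, 2.45 and 3.48 in male and 3.26, 3.07 and 11.9 in female HF/HS livers, against 40.5, 14.4 and 11 in male and 26.1, 12.4 and 70.8 in female control livers. Female HF/HS 3 overlapped with the control livers, which spread widely, and the difference of −2.44 ± 0.487 did not pass (log2, SE; adjusted p = 0.064, limma). Acat2, a thiolase at the entry to the pathway, differed by −0.48 ± 0.111 (adjusted p = 0.0895). Summed over the 9 genes, values were 197 to 219 in male HF/HS against 727 to 1565 in male control livers, and 219 to 282 in female HF/HS against 687 to 1919 in female control livers.

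From squalene to cholesterol, 10 of 11 genes fell, where 0.423% of all rows were called lower. The median difference was −1.72. Sqle, squalene epoxidase, the first oxygen-dependent step, had 1.5, 1.25 and 2.39 in male and 2.02, 2.32 and 9.59 in female HF/HS livers, against 85.6, 42.6 and 35.7 in male and 49.4, 45.4 and 115 in female control livers. The highest HF/HS value, that of female HF/HS 3, stood apart from the other 5 and was still below every control value. Sqle (chr15:59315092-59331193) fell by 4.02 ± 0.377 (log2, SE; adjusted p = 0.000842, limma), more than any other called gene.

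Msmo1, the sterol 4-methyl oxidase, had 10.8, 12.2 and 15.1 in male and 10.5, 13.6 and 16.2 in female HF/HS livers, against 166, 91.2 and 101 in male and 97.3, 93.3 and 268 in female control livers. The HF/HS livers of both sexes lay in the same narrow range. Msmo1 (chr8:64718145-64733578) fell by 3.17 ± 0.262 (log2, SE; adjusted p = 0.000398, limma). Cyp51, lanosterol demethylase, fell by 2.91 ± 0.231, and Nsdhl, which works beside Msmo1 in removing the same methyl groups, fell by 2.76 ± 0.235. Smaller falls were those of Dhcr7 (1.82 ± 0.211), Lss (1.72 ± 0.310), Tm7sf2 (1.47 ± 0.167), Sc5d (1.42 ± 0.198) and Hsd17b7 (1.41 ± 0.141), which encode later enzymes of the route and the lanosterol cyclase Lss. Ebp, the sterol isomerase, differed by −0.33 ± 0.0876 and did not pass (adjusted p = 0.151). Summed over the 11 genes, values were 489 to 552 in male HF/HS against 1068 to 1636 in male control livers, and 499 to 674 in female HF/HS against 1138 to 2013 in female control livers.

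**Figure D1:**
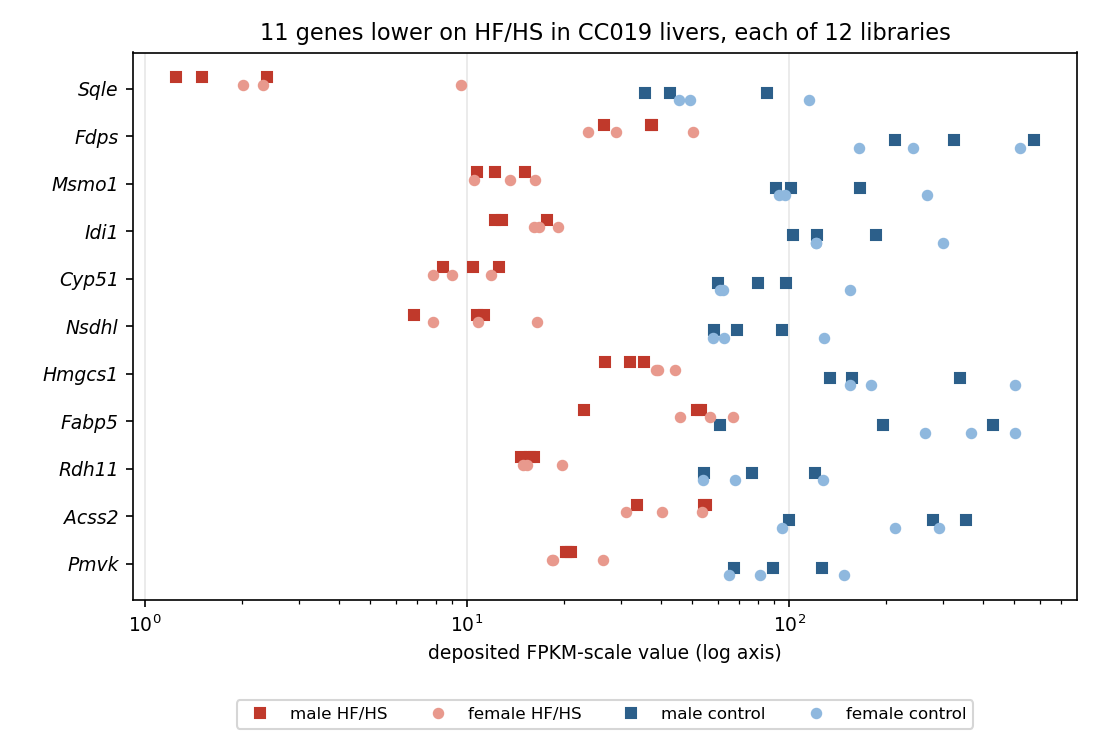
Each point is 1 library's deposited FPKM-scale value on a log axis for 11 of the genes with the largest called falls on HF/HS in CC019 livers. Male HF/HS (dark red squares), female HF/HS (light red circles), male control (dark blue squares) and female control livers (light blue circles) are shown; HF/HS and control livers do not overlap in 10 genes, and in Fabp5 the 60.9 of male control 3 lies below the 66.9 of female HF/HS 2.

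Among 8 genes of SREBP2 control and LDL uptake, 3 fell, where 0.423% of all rows were called lower. The median difference was −0.75. Srebf2 itself ranged from 5.94 to 9.70 with a median of 7.03 in HF/HS livers, and from 10.1 to 18 with a median of 13.1 in control livers. The groups did not overlap, and Srebf2 (chr15:82147269-82204960) fell by 0.74 ± 0.084 (log2, SE; adjusted p = 0.00134, limma), though not without the sex covariate (adjusted p = 0.112). Stard4, a cytosolic sterol carrier, fell by 1.15 ± 0.211 (adjusted p = 0.0376). Insig1 differed by −1.27 ± 0.403 (adjusted p = 0.237). Scap differed by −0.22, Insig2 by −0.01 and Mylip, a ubiquitin ligase of sterol control, by 0.20, and none of these passed. Of the 12 fits that left out a library, Stard4 was called only in those without female HF/HS 3 or male control 2 (highest adjusted p = 0.109).

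Outside these lists, the largest named falls were Fabp5, Rdh11 and Acss2. Rdh11, a retinal reductase, ranged from 14.7 to 19.7 with a median of 15.5 in HF/HS livers, and from 53.9 to 127 with a median of 72.3 in control livers. It fell by 2.23 ± 0.218 (log2, SE; adjusted p = 0.000795, limma), with no overlap. Fabp5, a fatty acid binding protein of skin, fat and macrophages, ranged from 23.2 to 66.9 in HF/HS and from 60.9 to 503 in control livers, so 1 control library reached into the HF/HS range. It fell by 2.38 ± 0.437 (adjusted p = 0.0474) and was called in only 1 of 12 fits that left out a library, the one without male control 3 (highest adjusted p = 0.121). Without the sex covariate it did not pass (adjusted p = 0.0901). Fabp5 was also on the marker list of lipid-associated macrophages, where the other 7 of 8 tested markers were not called, and the median of the list was −0.02.

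Several further called falls are named here after their values were seen. Ropn1l, known from sperm flagella, fell by 1.05 ± 0.124, and Aldoc, an aldolase, by 1.19 ± 0.145. Mmab, a cobalamin enzyme whose gene lies next to Mvk on chromosome 5, fell by 0.86 ± 0.136. Tmem97, a membrane protein that binds sterols, fell by 0.86 ± 0.125, and Lbr, a nuclear envelope protein with sterol reductase activity, by 0.55 ± 0.0885. Gpd2, the mitochondrial glycerol phosphate dehydrogenase, fell by 0.50 ± 0.0772, and Pcyt2, of phosphatidylethanolamine synthesis, by 0.36 ± 0.0576.

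Fatty acid synthesis leaned the same way but with few calls. Of 14 genes, 2 fell, 12 had negative differences and the median was −1.12. Over all rows, 0.423% were called lower and 5535 of 11833 had negative differences. Acss2, which makes acetyl-CoA from acetate, ranged from 31.2 to 55.1 in HF/HS and from 94.8 to 354 in control livers, without overlap, and fell by 2.15 ± 0.355 (log2, SE; adjusted p = 0.0278, limma). Slc25a1, the mitochondrial citrate carrier, ranged from 95.0 to 128 in HF/HS and from 148 to 205 in control livers, again without overlap, and fell by 0.55 ± 0.0921 (adjusted p = 0.0181). Acss2 was called only without female HF/HS 3, male control 3 or female control 2 (highest adjusted p = 0.0834), and Slc25a1 was not called without male HF/HS 2 (adjusted p = 0.0564).

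The core enzymes spread too widely for a call. Fasn, fatty acid synthase, had 42.9, 62.0 and 33.3 in male and 45.3, 74.3 and 154 in female HF/HS livers, against 534, 265 and 42.3 in male and 173, 114 and 303 in female control livers. Male control 3 lay among the HF/HS livers, and female HF/HS 3 among the control livers. Fasn differed by −1.59 ± 0.602 (log2, SE; adjusted p = 0.329, limma), Acly by −1.35 ± 0.452 (adjusted p = 0.262) and Elovl6 by −1.24 ± 0.520 (adjusted p = 0.379). Acaca and Acacb, the acetyl-CoA carboxylases, differed by −0.73 and −1.31, and Srebf1 by 0.46, none of them called. Over the 14 genes, male control 3 was the lowest of the 3 male control livers in 14 and female HF/HS 3 the highest of its 3 in 12. Male control 1 was the highest of its 3 in 14, female HF/HS 1 the lowest of its 3 in 14. Female control 2 was the lowest of its 3 in 13. The part of any of these libraries in the result was not tested.

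Adam11 stood first among the rises. It belongs to a family of membrane metalloproteases, is known mainly from the nervous system and lacks a working protease site. Adam11 had 13.6, 12.7 and 10.2 in male and 10.2, 9.11 and 6.02 in female HF/HS livers, against 2.52, 3.06 and 1.87 in male and 0.521, 0.932 and 0.589 in female control livers. Each HF/HS library was above every control library, and males were above females on both diets. Adam11 (chr11:102761439-102780262) rose by 2.2 ± 0.152 (log2, SE; adjusted p = 7.73e-05, limma), and it was called in every one of 12 fits that left out 1 library.

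The other named rises were all smaller than 2-fold. Acaa1b, a peroxisomal thiolase of fatty acid breakdown, ranged from 602 to 976 with a median of 886 in HF/HS livers, and from 318 to 648 with a median of 476 in control livers. It rose by 0.81 ± 0.13 (log2, SE; adjusted p = 0.0147, limma), although the lowest HF/HS liver lay below the highest control liver. Gpc1, a cell-surface heparan sulfate proteoglycan, averaged 2.85 ± 1.15 in HF/HS and 1.17 ± 0.282 in control livers (SD, n = 6 each) and rose by 0.78 ± 0.123. Fabp2, the intestinal fatty acid binding protein, averaged 188 ± 32.7 in HF/HS and 122 ± 41.0 in control livers and rose by 0.67 ± 0.0978. Glt1d1, a glycosyltransferase-like gene, ranged from 14.2 to 32.4 in HF/HS and from 7.68 to 14.2 in control livers and rose by 0.86 ± 0.135. These 4 genes were called in each of 12 fits that left out 1 library. None of the 4 passed without the sex covariate (adjusted p of 0.118 for Acaa1b, 0.153 for Gpc1, 0.313 for Fabp2 and 0.267 for Glt1d1), and in 1 fit over all strains Acaa1b (0.415) and Glt1d1 (0.0644) did not pass either.

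**Figure D2:**
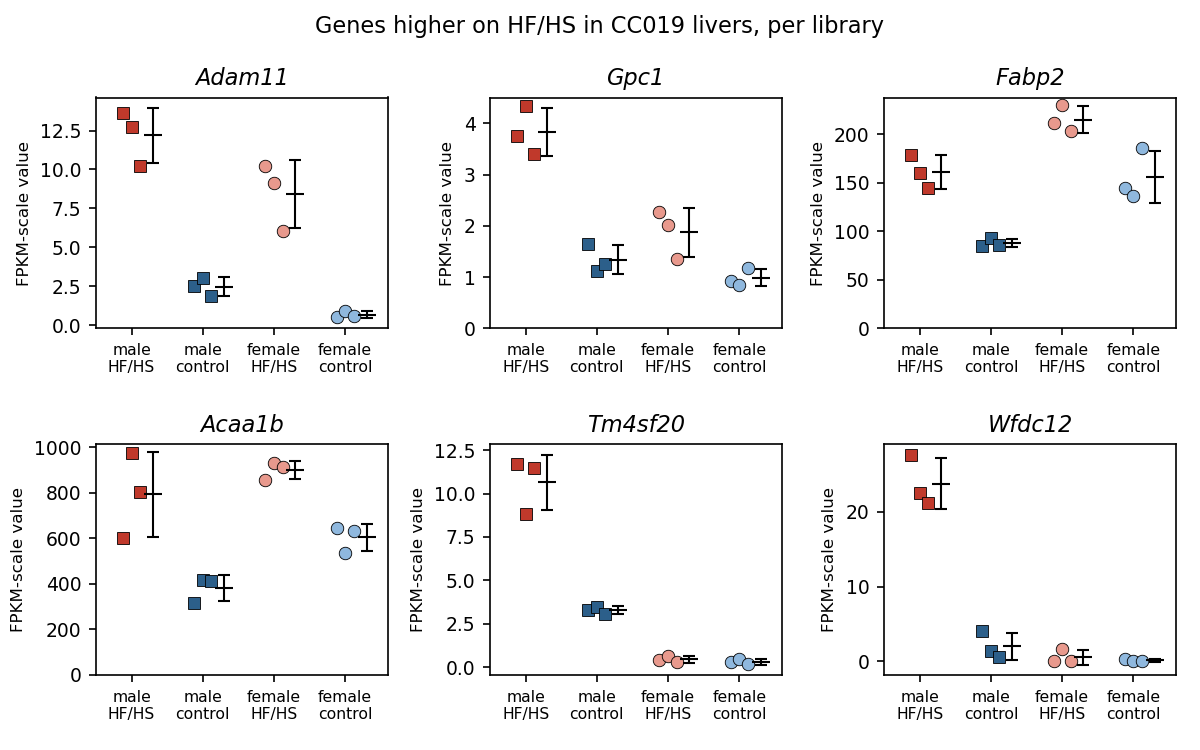
Deposited FPKM-scale values of 6 genes in the 4 CC019 groups, 1 point per library, with the mean and SD (n = 3) as a bar to the right of each group. Adam11, Gpc1, Fabp2 and Acaa1b were called in the diet effect over both sexes, and Tm4sf20 and Wfdc12 stand out in males, where their HF/HS livers sit at 8.84 to 11.7 and 21.2 to 27.7.

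The remaining 7 named rises were lost when certain single libraries were left out. Fmo5, a flavin monooxygenase, rose by 0.85 ± 0.155 (log2, SE; adjusted p = 0.0337, limma) but was called only without male HF/HS 3 or male control 1 or 2. Tmem150a rose by 0.65 ± 0.12 and was called only without male HF/HS 2 or male control 1. Slc13a5, the citrate importer of the liver cell membrane, rose by 0.63 ± 0.116 and was called only without male HF/HS 2 or male control 3. Cyp4f15, a fatty acid omega-hydroxylase, rose by 0.47 ± 0.0863 and was called only without male control 2 or 3 or female control 2. For these 4 genes the highest adjusted p with 1 library left out was 0.0963. With no minimum mean Fmo5, Tmem150a and Cyp4f15 did not pass (0.0516 to 0.0569), without the sex covariate Fmo5 (0.302) and Tmem150a (0.321) did not, and in 1 fit over all strains Slc13a5 (0.31) and Cyp4f15 (0.111) did not.

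Ephx1, the microsomal epoxide hydrolase, rose by 0.57 ± 0.098 (log2, SE; adjusted p = 0.0242, limma). It was called only without male HF/HS 3, female HF/HS 3, male control 2 or 3 or female control 2 (highest adjusted p = 0.0735), and neither in 1 fit over all strains (0.41) nor without the sex covariate (0.348). Gramd1b, which carries cholesterol from the cell surface to the endoplasmic reticulum, rose by 0.58 ± 0.115 and was called only without male HF/HS 1 (highest adjusted p = 0.122), whose 3.20 was the highest of the 6 HF/HS values. It averaged 0.89 in control livers, so it reached the minimum mean of 1 only through the HF/HS livers, and its test is no support. Gramd1b and Etaa1os were also lost with no minimum mean (0.0728 and 0.0657) and under several other settings (highest adjusted p of 0.114 and 0.392). Etaa1os, annotated opposite to Etaa1, rose by 0.57 ± 0.111 and was called only without male control 2 or 3 or female control 1 (highest adjusted p = 0.113). Whether the counting used the strand is not given in the sources used here, so reads of Etaa1 and Etaa1os may not be told apart.

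The diet effect was then taken in each sex. In males 16 rows were called (0.135%), 6 higher (0.0507%) and 10 lower (0.0845%), and 7.42% of rows had an unadjusted p under 0.05. In females 40 rows were called (0.338%), 14 higher (0.118%) and 26 lower (0.22%). With 1 library left out the counts ran between 2 (without male HF/HS 2) and 25 in males and between 13 (without female HF/HS 2) and 110 (without female control 2) in females. Sqle, Fdps, Msmo1, Idi1, Cyp51, Nsdhl, Rdh11, Pmvk and Hsd17b7 were among those called lower in each sex, with Sqle at −4.28 ± 0.549 in males and −3.77 ± 0.549 in females. In males, HF/HS and control livers did not overlap in 9 of 9 genes leading to squalene and in 11 of 11 genes after it, all lower on HF/HS, where this held for 6.36% of all rows. In females they did not overlap in 9 of 9 and in 10 of 11, against 6.31% of all rows. None of the 28 cholesterol genes differed between the sexes in its diet effect at an adjusted p under 0.05 (limma), nor at an unadjusted p under 0.05, which 4.56% of all rows reached.

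Many of the single-sex calls depended on 1 library. In males, Idi1 was lost without male HF/HS 1, 2 or 3 or male control 1 (highest adjusted p = 0.0755, limma). Msmo1 and Nsdhl were lost without any 1 of these 4 or male control 2, with highest adjusted p of 0.122 and 0.107. Sqle was lost without any 1 of the same 5 or female control 1 (0.153), and Fdps was called only without male control 3 or female control 2 or 3 (highest adjusted p = 0.217) and was lost with a pseudocount of 5 (0.0504). In females, Idi1 was called throughout, Msmo1 was lost without female HF/HS 1 or 2 (highest adjusted p = 0.0582), and Sqle was called only without female HF/HS 3, male control 1 or 3 or female control 2 (highest adjusted p = 0.121).

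**Figure D3:**
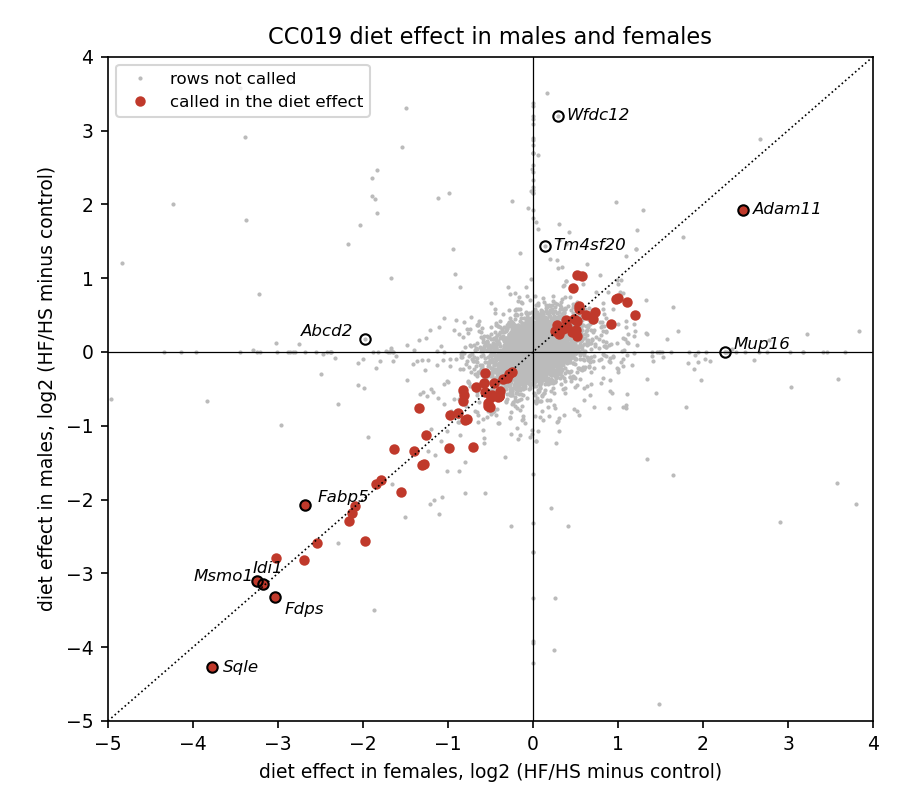
Each point is 1 tested row, with the female diet effect on the horizontal and the male diet effect on the vertical axis (log2, HF/HS minus control); 33 of 11833 rows lie outside the axes. Red points are the 75 rows called in the effect over both sexes, with Sqle at the lower left and Adam11 at the upper right. They lie near the dotted line of equal effects, which is in part set by their selection from a fit of 1 effect for both sexes. Black rings mark the named genes.

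Tm4sf20, a tetraspanin-like membrane protein, was called in males. It had 11.7, 8.84 and 11.5 in male HF/HS against 3.28, 3.49 and 3.04 in male control livers. In females it had 0.422, 0.661 and 0.267 on HF/HS against 0.306, 0.493 and 0.157 on control, so the gene was low in females on either diet. In males it rose by 1.44 ± 0.141 (log2, SE; adjusted p = 0.00462, limma). It was called in every fit that left out 1 library, but not with a pseudocount of 0.1 (adjusted p = 0.11). Its SE and p rest on 1 spread over all 4 groups, to which the low female values also contribute. The male minus female effect was 1.31 ± 0.20 but did not pass the test (adjusted p = 0.0875).

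Wfdc12, a small secreted protease-inhibitor-like protein, had 27.7, 22.5 and 21.2 in male HF/HS against 4.06, 1.33 and 0.642 in male control livers. In females it had 0, 1.69 and 0 on HF/HS against 0.314, 0.118 and 0 on control. The male HF/HS livers stood far above the other 9 libraries. Higher values without overlap between the diets were found for 5.43% of all rows in males. Wfdc12 (chr2:164189231-164190558) was counted among the male calls, with a difference of 3.20 (log2). It averaged 0.906 over the other 9 libraries, so it reached the minimum mean of 1 only through the male HF/HS livers where it is high, and no p is given for it.

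Gpc1, Fabp2 and Acaa1b were also called in males, at 1.05 ± 0.143, 0.86 ± 0.117 and 1.03 ± 0.165 (log2, SE), beside 0.52 ± 0.143, 0.47 ± 0.117 and 0.58 ± 0.165 in females. Their male minus female effects had unadjusted p of 0.0252, 0.0382 and 0.0806, and none passed after adjustment. In males Gpc1 was lost without male HF/HS 1, 2 or 3 or male control 1 or 2 (highest adjusted p = 0.122, limma), and Acaa1b was called only without male HF/HS 1 (highest adjusted p = 0.225). The male call of Acaa1b was also lost with either other pseudocount, with no minimum mean and under other scalings (adjusted p of 0.0514 to 0.0865), and in 1 fit over all strains (1.0).

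In females the named rises after Adam11 were Mup16, Fmo5, Sult2a8 and Ugt2b1. Mup16 encodes a major urinary protein, a family of pheromone carriers that male livers make in bulk. It had 606, 699 and 336 in female HF/HS against 132, 150 and 64.5 in female control livers and was listed at 0 in all 6 males. It was called higher in females by 2.26 ± 0.315 (log2, SE; adjusted p = 0.0197, limma), but not without female HF/HS 1 or 2 (highest adjusted p = 0.0833) and not in 1 fit over all strains (adjusted p = 0.997). The fit took 1 spread from all 4 groups, and the males at 0 added none. The SE and p therefore do not measure the spread among females alone. The Mup genes are near-identical copies that share reads, so the split of reads between them is uncertain.

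Mup10 and Mup11 had values above 0 in CC019 in the female control livers alone. Mup10 had 1615, 2702 and 1071 and Mup11 had 63.0, 148 and 58.1 in female control livers, and both were listed at 0 in all HF/HS females and in all males. Both reached the minimum mean of 1 only through those 3 libraries, and a value of 0 can be a failed estimate, so no fold and no p are given. They also made up 2 of the 5 rows whose diet effect differed between males and females (0.0423% of rows, all 5 with the higher effect in males). The other 3, named after their values were seen, were 1 row each of Mup2 and Gm2083, annotated over the same stretch of chromosome 4, and of Mir684-1, and each was likewise listed at 0 in every HF/HS female. With all 5 rows resting on such zeros, the count is a description. In the 7 other strains compared here Mup10 was at 0 in all 42 males, in 10 of 20 HF/HS females and in 8 of 20 control females, so females at 0 were found in other strains and on both diets. CC042 had the pattern of CC019, with Mup10 at 2764 to 4041 in the control females and at 0 in all HF/HS females.

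Sult2a8, a bile acid sulfotransferase, had 662, 538 and 542 in female HF/HS against 253, 382 and 224 in female control livers. The female HF/HS livers lay close to the males, which had at most 719 on either diet. In females it rose by 1.05 ± 0.177 (log2, SE; adjusted p = 0.0395, limma). Ugt2b1, a glucuronosyltransferase, rose by 1.0 ± 0.17 in females (adjusted p = 0.0395), and Fmo5 by 1.20 ± 0.169 (adjusted p = 0.0178). Sult2a8 was called only without male control 3 or female control 2, and Ugt2b1 only without male control 1 or 3 or female control 2, with highest adjusted p of 0.171 and 0.17, and Fmo5 was lost without female HF/HS 1 or 2 or female control 1 or 3 (highest adjusted p = 0.0837). Sult2a8 and Ugt2b1 also did not pass with no minimum mean (0.0545 and 0.0553) or in 1 fit over all strains (0.223 and 0.139).

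Abcd2, a peroxisomal importer of very long-chain fatty acids that is higher in female liver, had 2.90, 6.01 and 6.18 in female HF/HS against 23.9, 14.9 and 29.1 in female control livers. Males lay at 0.273 to 0.532 on either diet. In females Abcd2 (chr15:91145871-91191807) fell by 1.98 ± 0.253 (log2, SE; adjusted p = 0.00916, limma), while the male minus female effect of 2.15 had an adjusted p of 0.158. As for Mup16, 1 spread was taken from all 4 groups, so the SE and p do not measure the females alone.

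These genes belong to a wider pattern in genes that differ between the sexes. Of 23 tested female-biased genes, all 23 had a negative diet effect over both sexes, with 0 called and 3 at an unadjusted p under 0.05 (limma), where all rows had 12.2% under that p. Their median was −0.79 over both sexes, −0.09 in males and −1.41 in females, where Abcd2 was called and 9 had an unadjusted p under 0.05. Of 23 tested male-biased genes, 20 had a positive effect, with 0 called and 2 at an unadjusted p under 0.05. Their median was 0.49 over both sexes, −0.12 in males and 1.06 in females, where Ugt2b1 was called and 15 had an unadjusted p under 0.05. Over all rows, 9.63% had an unadjusted p under 0.05 in females.

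Individual members were far apart in females. Sult3a1, a female-biased sulfotransferase, had 47.6, 105 and 910 in female HF/HS against 3454, 1294 and 3024 in female control livers. Its 3 HF/HS livers differed widely but all lay below the control livers, and the female difference of −3.83 ± 1.11 did not pass (adjusted p = 0.275, limma). Slc22a26, a female-biased organic anion transporter, had 11.9, 18.9 and 35.8 in female HF/HS against 168, 62.7 and 157 in female control livers, with a female difference of −2.50 ± 0.433 (adjusted p = 0.0546).

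**Figure D4:**
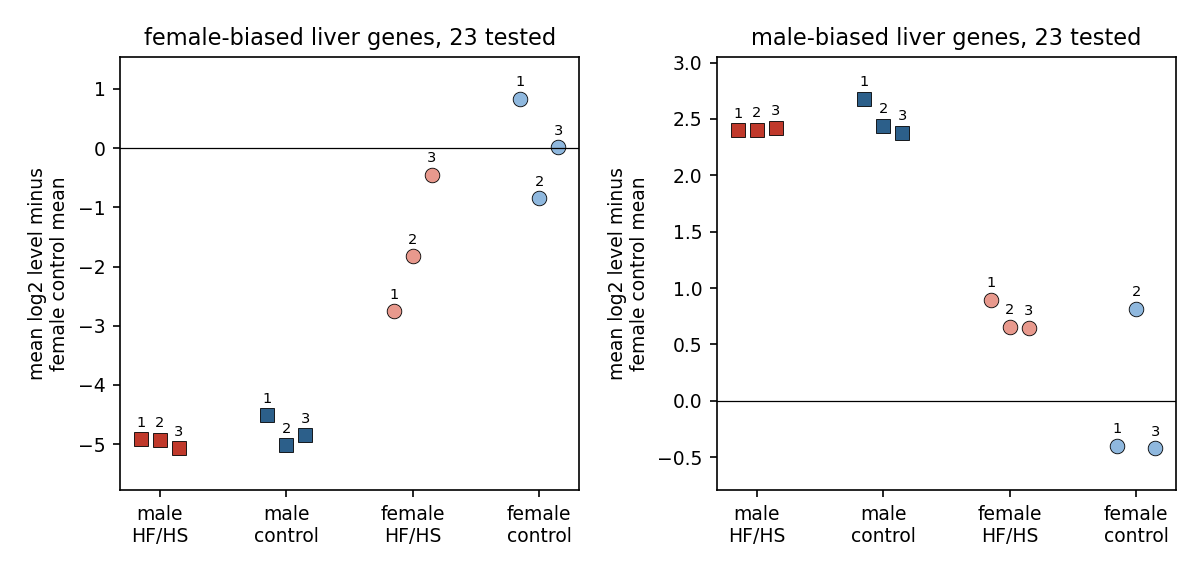
Mean log2(value + 1) over 23 female-biased (left) and 23 male-biased genes (right) in each library, minus the mean of the female control livers; numbers are the libraries' replicate labels. Female HF/HS livers sit at −2.75, −1.82 and −0.45 for female-biased genes, the last of them within the range of the female controls, and male HF/HS and male control livers overlap.

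The shift was uneven between libraries. Relative to the mean of the female control livers, the mean log2 level of the 23 female-biased genes was −2.75, −1.82 and −0.45 in female HF/HS 1, 2 and 3, against 0.83, −0.85 and 0.02 in female control 1, 2 and 3. Male control livers averaged −4.79 on this scale, so the 3 female HF/HS livers covered 57.4%, 38.0% and 9.39% of the gap. For the male-biased genes the female HF/HS livers stood at 0.90, 0.66 and 0.65, against −0.40, 0.82 and −0.42 in the female control livers, so female control 2 was as high as the HF/HS females. On the first principal component, which held 40.2% of the variance and separated the sexes, female HF/HS 1 and 2 scored 15.5 and 12.0 and female HF/HS 3 scored 40.6, against 42.0 to 47.1 for female control livers and −35.7 to −28.0 for males. The part of single libraries in this pattern was not tested.

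The second comparison asked where the diet effect in CC019 differed from the mean effect in 7 other strains (CC011, CC013, CC032, CC040, CC041, CC042 and CC043). Each strain had both sexes and both diets, and 82 of their libraries entered after 2 identical CC040 columns were left out. The SE and p of this comparison rest on the spread among libraries within groups. They do not measure the spread among strains, so a call does not place CC019 outside that spread. CC003 and CC060 were set aside, a choice made with earlier results of this table known: Snord104, a small nucleolar RNA, had a median of 755340 in CC003 and 0 in CC060, against medians of 25043 to 53198 in the 8 strains used. Of 11833 rows, 39 were called (0.33%), 18 higher (0.152%) and 21 lower (0.177%) in CC019, and 10.2% had an unadjusted p under 0.05. Pparg and Anxa2 had lower diet effects in CC019 than in the 7 others, though for Anxa2 the effects in CC011 and CC013 were small too. Several cholesterol enzymes had larger falls. Against all 9 other strains 13 rows were called, 12 of them among the 39. With 1 CC019 library left out the count ran between 19 (without female HF/HS 1) and 108 (without male control 3).

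Pparg encodes a nuclear receptor of fat cells that rises in fatty mouse liver. It had 1.29, 1.82 and 0.786 in male and 1.36, 0.556 and 1.55 in female HF/HS livers of CC019, against 1.54, 1.79 and 1.12 in male and 2.24, 1.02 and 1.99 in female control livers. The diets overlapped, and the CC019 diet effect of −0.24 ± 0.166 did not pass (adjusted p = 0.61, limma). In the 7 other strains the effects ran from 0.22 to 1.40, and group medians on HF/HS were 0.655 to 18.7 in males and 3.21 to 21.7 in females. The CC019 effect was lower than their mean by 1.07 ± 0.195 (adjusted p = 0.00147, limma).

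Anxa2, a calcium-dependent membrane-binding protein, ranged from 12.8 to 22.4 with a median of 16.5 in HF/HS livers of CC019, and from 17.0 to 21.5 with a median of 17.5 in control livers. The diets overlapped in CC019, with an effect of −0.14. CC011 (0.18) and CC013 (0.10) had small effects as well, while the remaining strains had effects of 0.80 to 1.82. The difference of −1.03 ± 0.214 was called (adjusted p = 0.0105, limma). Spon2, an extracellular matrix protein, differed by −1.04 ± 0.240 (adjusted p = 0.0281). Its effect was −0.46 in CC019 and was also negative in CC011 (−0.23) and CC013 (−0.15). The remaining strains had effects of 0.42 to 1.54. Pparg and Anxa2 were called in every fit that left out 1 CC019 library. Against all 9 other strains Pparg was called, and Anxa2 (adjusted p = 0.075) and Spon2 (0.274) were not. Spon2 was also lost with a pseudocount of 5 (0.0607). With 1 library left out, Spon2 was lost without male HF/HS 1, female HF/HS 2, male control 1 or 2 or female control 3 (highest adjusted p = 0.109).

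Other storage genes leaned as Pparg did without a call. Cd36, the fatty acid transporter, had a lower mean log2 level on HF/HS in CC019 than in any of the 7 other strains, and its effect of 0.43 was 0.79 ± 0.206 below their mean (adjusted p = 0.0597, limma). Cidec, a lipid droplet protein, differed by −0.96 ± 0.329 (adjusted p = 0.218). Of 17 tested lipid droplet genes, 1 was called lower in the strain comparison, Pparg, and 14 had negative differences. Over all rows, 0.177% were called lower in that comparison and 5683 of 11833 had negative differences. In CC019 alone 0 of the 17 were called in the diet effect (2 at an unadjusted p under 0.05, where all rows had 12.2%), and Plin2, the main coat protein of liver droplets, differed by −0.01.

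**Figure D5:**
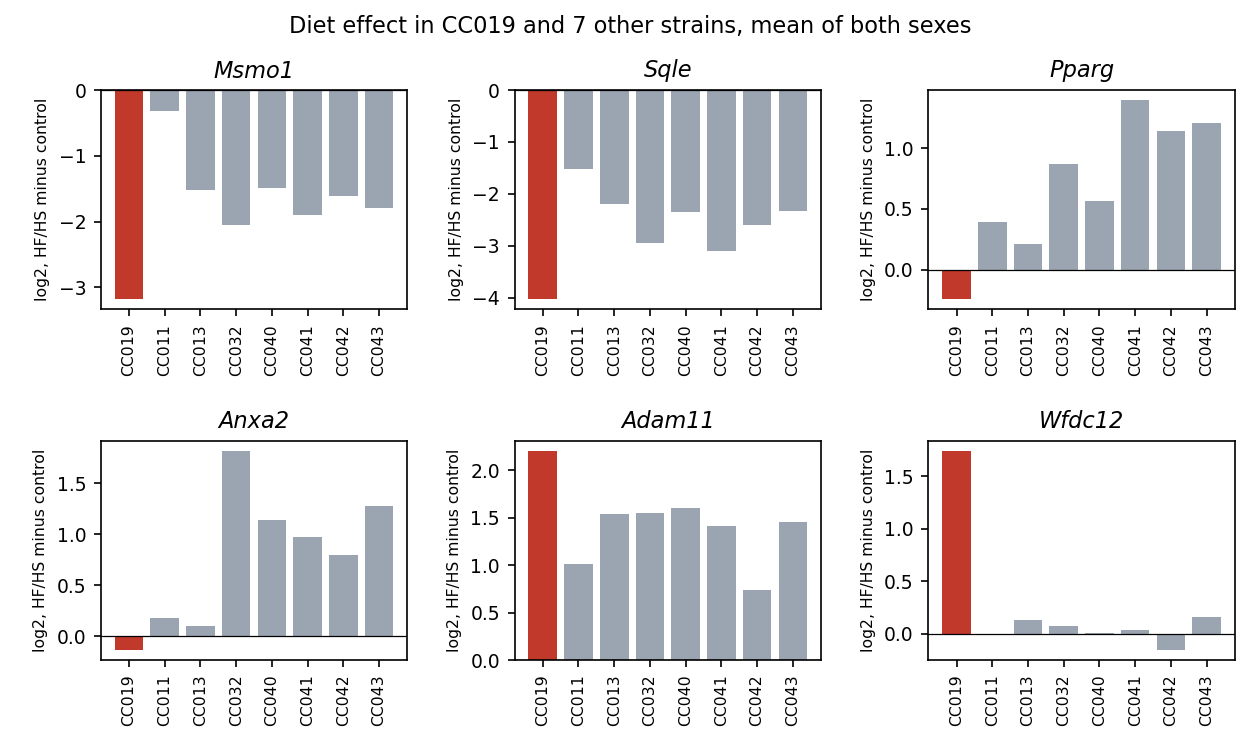
Bars give the diet effect (log2, HF/HS minus control, mean of both sexes) in CC019 (red) and in 7 other strains (grey) for 6 genes, each panel with its own scale and no error bars. CC019 has the lowest effect of 8 strains for Msmo1, Sqle, Pparg and Anxa2 and the highest for Adam11 and Wfdc12; Msmo1, Pparg, Anxa2 and Adam11 were called against the mean of the 7 others, and of these Anxa2 and Adam11 were not called against 9.

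Msmo1, Hmgcs1, Cyp51 and Hsd17b7 were called lower in CC019 than in the other strains. Msmo1 differed by −1.64 ± 0.321 (log2, SE; adjusted p = 0.00405, limma), with effects of −2.06 to −0.32 in the other strains against −3.17 in CC019. Hmgcs1 differed by −1.48 ± 0.314 (adjusted p = 0.0139), Cyp51 by −1.21 ± 0.293 (adjusted p = 0.0417) and Hsd17b7 by −0.73 ± 0.138 (adjusted p = 0.00247). Sqle, with −4.02 in CC019 against −3.10 to −1.53 elsewhere, differed by −1.59 ± 0.447 and did not pass (adjusted p = 0.0811). Hmgcs1 was lost without male control 1 or female control 3 (highest adjusted p = 0.0789), and Cyp51 without male HF/HS 1 or 3, female HF/HS 1 or 2, male control 1 or female control 3 (highest adjusted p = 0.164). Against all 9 other strains Msmo1 and Hsd17b7 were called, and Hmgcs1 (adjusted p = 0.0713) and Cyp51 (0.311) were not.

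Over the 28 cholesterol genes, the median diet effect was −1.60 in CC019, against −1.39 to −0.40 in the 7 other strains. CC019 had the lowest effect of the 8 strains in 20 of the 28, and over all rows in 1144 of 11833. On HF/HS, CC019 had the lowest mean log2 level of the 8 strains in 16 of 28 genes. On the control diet it had the highest level in 3 and the lowest in 1. These level ranks were not counted over all rows, so they have no share to be set against.

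Wfdc12 differed from the other strains by 1.71 (log2), and no p is given for it, since it reached the minimum mean only through the male HF/HS livers of CC019. Among 21 male HF/HS libraries of the other strains its values ran from 0 to 0.612, while those of CC019 were 27.7, 22.5 and 21.2. Adam11 rose in CC019 by 0.87 ± 0.188 more than in the others (adjusted p = 0.0141, limma), whose effects ran from 0.73 to 1.60. Acmsd, which steers tryptophan breakdown away from NAD synthesis, differed by 1.19 ± 0.248 (adjusted p = 0.0108). Its CC019 effect of 0.49 was not called, and the effects elsewhere ran from −0.93 to −0.55. Adam11 was lost without female HF/HS 1 (adjusted p = 0.0672) and against all 9 other strains (0.432). Acmsd was lost without male HF/HS 1 (adjusted p = 0.0551) and was called against all 9.

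Smaller differences above the other strains were those of Srd5a1, a steroid reductase (0.72 ± 0.178), Fmo5 (0.59 ± 0.138), Tmem150a (0.58 ± 0.142), Lrrc3 (0.54 ± 0.118) and Slc15a4, a lysosomal peptide and histidine transporter (0.53 ± 0.131). Srd5a1 was called only without male HF/HS 2, female HF/HS 3, male control 3 or female control 2 (highest adjusted p = 0.143, limma). Fmo5 was lost without male HF/HS 1, female HF/HS 1 or 2 or female control 1 or 3, and Tmem150a was called only without male HF/HS 2, male control 1 or female control 2 (highest adjusted p = 0.0997 for each). Lrrc3 was lost without male HF/HS 3 or male control 2 (0.0653), and Slc15a4 was called only without male HF/HS 1 or 2, female HF/HS 3, male control 2 or female control 2 (0.193). None of these 5 was called against all 9 other strains (adjusted p of 0.128 to 0.227), and Srd5a1 was also lost with a pseudocount of 0.1 (0.0524). Mup10 and Mup11 were among the rows called lower, and as above no fold and no p are given. For both, CC042 had a lower diet effect than CC019. For the sex-biased lists, CC019 had the lowest effect of 8 strains in 13 of 23 female-biased genes, where all rows had 1144 of 11833. It had the highest in 14 of 23 male-biased genes, where all rows had 1630 of 11833.

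The remaining gene groups had few or no calls in the CC019 diet effect. Over all rows, 0.634% were called in this effect and 12.2% had an unadjusted p under 0.05. Of 23 genes of peroxisomal and omega oxidation, Acaa1b rose, 17 had positive differences and the median was 0.24. Acaa1a and Acox2, 2 further peroxisomal enzymes, differed by 0.39 and 0.37 with adjusted p of 0.0557 and 0.0653 (limma). Of 17 mitochondrial fatty acid oxidation genes 0 were called and 2 had an unadjusted p under 0.05, with 16 positive differences and a median of 0.05. Of 16 lipoprotein genes, Apoc1, a lipoprotein surface protein, rose by 0.40 ± 0.0728 (adjusted p = 0.0318), but was called only without male HF/HS 3 or male control 2 or 3 (highest adjusted p = 0.10), and was lost in 1 fit over all strains, without the sex covariate and with quantile normalization (highest adjusted p = 0.491).

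Targets of LXR, the receptor that senses oxidised sterols, had 0 of 11 called and 5 at an unadjusted p under 0.05, where all rows had 12.2%. Their differences were positive in 10, with a median of 0.35. Abcg5 and Abcg8, which pump sterols into bile, differed by 0.92 and 0.72 with adjusted p of 0.265 and 0.323 (limma), and Apoe by 0.35 with an adjusted p of 0.0635. Bile acid synthesis had 0 of 12 called and 2 at an unadjusted p under 0.05. Its rate-limiting enzyme Cyp7a1 differed by 0.91 with an adjusted p of 0.633. Xenobiotic P450 enzymes had 0 of 24 called and 8 at an unadjusted p under 0.05, with Cyp3a11 at 1.66 and an adjusted p of 0.0822.

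Of the inflammatory groups, the interferon response had 0 of 24 called and 4 at an unadjusted p under 0.05, where all rows had 12.2%. It had 18 negative differences and a median of −0.16. Antigen presentation had 0 of 11 called and 0 at an unadjusted p under 0.05, and the acute phase 0 of 24 and 3. Kupffer cell markers had 0 of 12 called and 0 at an unadjusted p under 0.05, with a median of 0.09, and stellate cell and matrix genes had 0 of 14 and 0, with a median of −0.03. None of the 15 lymphocyte markers reached a mean of 1, so none was tested. Hepatocyte markers had 0 of 12 called and 1 at an unadjusted p under 0.05, with a median of −0.02.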

How the data were processed

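Per the labels, total RNA from whole livers (500 ng) was made into stranded libraries, and both a ribosomal-depletion and an mRNA kit are named without saying which library used which. The authors deposited FPKM-like values for 24883 rows in 120 libraries; the upper quartile of each is 9.992 to 10.0, and depth is unknown, so no count test was run. The submitters' processing notes name TopHat2 2.1.1, Bowtie2 2.2.5.0, Cufflinks 2.2.1 and mm10, in no order.

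Values were tested as log2(value + 1), so a fold change understates the change of low genes. Only rows that averaged 1 or more across the 12 CC019 libraries were kept. In limma 3.58.1 (R 4.3.3, statmod 1.5.0; trend and robust prior), the diet effect came from a fit with sex as a covariate, and the effects in each sex and their difference from a separate fit of the 4 group means. That second fit takes 1 spread per row from all 4 groups, so it does not measure the spread within 1 sex alone. The strain comparison added 82 libraries of 7 strains; 2 identical columns were left out. P-values were adjusted over all 11833 rows by Benjamini-Hochberg, and a call is an adjusted p under 0.05. The fit was also run on simulated data with independent noise per row and changes placed only in rows with higher means. Its outcome is not reported here and is no support for the calls. Alternatives were other pseudocounts, filters, scalings and priors, library weights, a replicate block and leaving out each library.

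The members and the 53 gene lists (784 genes) were chosen with earlier results of these data known. Named genes are the 12 largest called rises and falls of the same sign in both sexes, the 5 per direction in each sex and in their difference, the 8 per direction in the strain comparison, and up to 4 per list with the lowest p. Some genes taken by this rule or counted in the lists are not reported here. Repeated symbols and symbols of unnamed transcripts (Rik, Gm, LOC, Mir) were passed over. Further list members were named for their place in the pathway, after their values were seen. Each coordinate is from the deposited table, with 1 added to its start. Figures were drawn with matplotlib 3.10.9 (Python 3.11.15, pandas 2.3.3, numpy 2.4.6).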

Additional observations from a re-analysis of the deposited data

Results flagged for a closer look

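In 58 sets of 6 same-diet libraries, taken over the named genes, a library that stood apart by Dixon's criterion (gap over range above 0.625) was found for 6 genes; chance gives about 1 in 20 groups. Female HF/HS 3 stood above the other HF/HS livers for Sqle (9.59), Rdh11 (19.7) and Pmvk (26.4). Male HF/HS 1 stood above them for Gramd1b (3.20) and below them for Fabp5 (23.2), and female HF/HS 1 stood below them for Slc25a1 (95.0). The sum of all values of male HF/HS 2 (1019970) stood apart from those of the other HF/HS libraries.

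The limma test of the difference itself was passed in these cases. The male minus female diet effect was 10.71 for Mup10 and 6.37 for Mup11 on the log2(value + 1) scale, which depends on the added 1 because HF/HS females and all males are at 0, and is no fold. Mup10, Mup11 and Wfdc12 reached the minimum mean of 1 only through the group where they are high, so their tests are no support. Against the 7 other strains, the effect in CC019 was higher for Wfdc12 (1.71), Acmsd (1.19), Adam11 (0.87), Srd5a1 (0.72), Fmo5 (0.59), Tmem150a (0.58), Lrrc3 (0.54) and Slc15a4 (0.53). It was lower for Msmo1 (−1.64), Hmgcs1 (−1.48), Cyp51 (−1.21), Pparg (−1.07), Spon2 (−1.04) and Anxa2 (−1.03), and for Mup10 (−4.90) and Mup11 (−2.82), with the same limit. Of these, Anxa2, Spon2, Hmgcs1, Cyp51, Adam11, Srd5a1, Fmo5, Tmem150a, Lrrc3 and Slc15a4 were not called against all 9 other strains. For Mup10 and Mup11 the effect in CC042 was lower than that in CC019.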

How the results depend on the processing

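The diet effect had 75 calls as reported, 36 with the replicate block, 333 with library weights, 121 in 1 fit over all strains and 44 without the sex covariate. Females had 40, 415 with library weights and 123 in 1 fit over all strains. Males had 16, 3 with the replicate block, 31 with library weights and 46 in 1 fit over all strains. The male minus female effect had 5, 8 with the replicate block, 9 with library weights and 13 in 1 fit over all strains. The strain comparison had 39, 61 with no filter, 59 with quantile normalization, 752 with library weights and 13 against all 9 other strains. The cause was not tested. Leaving out 1 library gave 37 to 104, 13 to 110, 2 to 25, 4 to 21 and 19 to 108 calls for these 5 comparisons in the order above. With the replicate block Glt1d1, Fmo5, Gpc1, Fabp2, Tmem150a, Slc13a5, Gramd1b, Etaa1os, Cyp4f15, Apoc1, Acss2, Fabp5 and Stard4 did not pass in the diet effect (adjusted p of 0.0623 to 0.19, limma). Nor did Gpc1, Acaa1b, Fdps, Idi1, Msmo1 and Nsdhl in males (0.054 to 0.203), Sult2a8 in females (0.115), or Hmgcs1, Anxa2, Tmem150a, Slc15a4 and Cyp51 in the strain comparison (0.0558 to 0.0909).

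Libraries of the same replicate number did not deviate together (correlations of 0.0592, −0.0217 and 0.0961 in females and 0.0356, 0.0119 and −0.0360 in males, across genes), and not every library correlated best with its own number. The libraries were therefore not paired in the reported fits. With 3 libraries per group, such correlations cannot exclude a pairing. Over all alternatives, including those that left out 1 library, the named genes gave 4861 values on the same side of the threshold, 60 that newly passed, 331 that no longer passed and 0 that changed direction. The 4861 include genes that were not called under either setting. Some settings, such as no filter or no sex covariate, left the diet difference itself unchanged, so its direction could not change there. The depth is unknown, so low values carry an error that cannot be given.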

Other observations

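A pair of genes called higher in different comparisons lies next to each other on chromosome 5. Slc15a4 (chr5:127595666-127617392) was called in the strain comparison, and Glt1d1 (chr5:127632262-127707520) in the CC019 diet effect. Glt1d1 was named by its size of change and Slc15a4 by its strain difference, and their position was seen afterwards.

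Some groups had no call in the diet effect but an uneven rank among strains. CC019 had the highest diet effect of the 8 strains in 13 of 25 urea cycle and amino acid breakdown genes and in 10 of 18 clock genes, where all rows had 1630 of 11833. Within CC019, 0 of those 25 genes were called and 4 had an unadjusted p under 0.05 (limma), where all rows had 12.2%, and 20 had positive differences. Of the 18 clock genes 0 were called and 1 had an unadjusted p under 0.05, and Usp2 differed by 0.68. Usp2 averaged 3.77 in female HF/HS livers and 0.847 over the other 9 libraries. It reached the minimum mean of 1 only through the group where it is high, so its difference is no support. Red blood cell markers had negative differences in 6 of 7 tested genes, with 0 called and 1 at an unadjusted p under 0.05.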
